A study of Mus musculus with 6 samples.

Results

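Translation initiation factors (gene symbols starting with Eif) and elongation factors (Eef) were followed across 3 mouse tissues: testis, epididymis and SVF, the stromal vascular fraction of fat. The members were all genes whose symbol in the platform annotation starts with Eif or Eef and a number, which gave 60 genes on 68 probes out of 18545 named genes on 20924 named probes. Of the members, 52 had 1 probe and 8 had 2. The symbol alone chose them, so the set also holds 4 methyltransferases of elongation factors (Eef1akmt1, Eef1akmt2, Eef1aknmt and Eef2kmt), 4 kinases of eIF2, and Eif2c5, which RefSeq lists as a long noncoding RNA with an Argonaute name. Several central genes of the pathway, among them Eef1a1, Eif1 and Eif4g1, were not among the named genes and are not analysed here. Another 4 probes, annotated with the human symbols EIF4A2 and EIF4G2, fell outside the rule.

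Initiation begins when eIF2, loaded with GTP and the initiator tRNA, joins the small ribosomal subunit together with eIF1, eIF1A, eIF3 and eIF5. The eIF4 proteins bind the mRNA cap and unwind the leader, eIF5 triggers GTP hydrolysis at the start codon, and eIF5B joins the large subunit. Elongation uses eEF1 to bring aminoacyl-tRNAs and eEF2 to move the ribosome. Kinases that phosphorylate eIF2 slow initiation by blocking its nucleotide exchange factor, eIF2B. In testis, translation is known for mRNAs that are stored in spermatocytes and round spermatids and used later.

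The study hybridised total RNA of the 3 tissues in pairs on 6 2-colour arrays. Each pair was run on 2 arrays with Cy3 and Cy5 exchanged, so 4 arrays carried each tissue. The groups were testis, the coiled duct in which sperm mature (epididymis), and SVF, the cells of adipose tissue other than adipocytes. The design text names 3 RNA samples, 1 per tissue, and the labels used here give no strain, age, treatment or number of animals. The 2 arrays of a dye swap are therefore repeat hybridisations of the same RNAs, no test between tissues was possible, and no p-value is given. Values are mean log2 ratios ± SD over both arrays (n = 2 hybridisations). This SD leaves out differences between animals. The number of arrays limits the precision, and spot intensities were not analysed here. In whole tissues, more cells of a type and more RNA per cell cannot be told apart.

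The size rule for calling a gene higher in 1 tissue was a 2-fold difference, a log2 ratio of 1, reached on both arrays of the dye swap. The deposited logarithms were read as log2 and the Cy5 tissue as the numerator. Neither is stated in the labels, so folds depend on the first and all directions on the second, which is likely rather than given. Read as natural logarithms, the values would put 17 members rather than 10 above the limit in testis over SVF. With that direction, defining markers followed the labels. Of 12 male germ cell markers, 10 met the rule for testis over SVF (median 4.51) and 8 for epididymis over SVF (median 1.83, from -0.23 to 2.73). All 9 measured markers of the epididymal epithelium were higher in epididymis than in either other tissue, and testis fell below SVF for 11 of 12 stromal, endothelial and leukocyte markers. Of 8 adipocyte markers, SVF exceeded testis for 5 and testis exceeded SVF for 2. Of 10 immediate early genes, 9 were higher in SVF against testis and 7 against epididymis. What part these cell mixtures and early response genes have in the ratios of the members was not tested.

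As a set, the translation factors lay near the middle of the array in each comparison, with a minority far from it. In testis over SVF the median log2 ratio of the 60 members was 0.09, against 0.00 over all named genes, with the middle 50% of the members from -0.59 to 0.97. By the size rule 10 members were higher in testis (16.7%, background 20.7% of all named genes) and 7 in SVF (11.7%, background 16%). In epididymis over SVF the median was 0.31 against 0.07, with 7 members higher in epididymis (11.7%, background 10.2%) and 2 higher in SVF (3.33%, background 8.68%). In epididymis over testis it was 0.12 against 0.00, with 8 members higher in epididymis (13.3%, background 14.3%) and 5 in testis (8.33%, background 18%). The shares were thus close to or below those of all genes, and no share stands out as a result about the set. The 3 comparisons share their RNAs, so their values are given side by side and were not set against each other.

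Called from a single array, the count of members higher in epididymis than in SVF was 13 without the first array and 13 without the second. The count higher in SVF than in epididymis was 4 without the first and 3 without the second, and the count higher in testis than in epididymis was 9 and 8. A single array is a looser rule, so such counts cannot fall. Shares of all named genes were not counted under it, and the backgrounds given above do not apply. At least 1 comparison met the rule for 26 members (43.3%, against 47.1% of all named genes), and 34 met it in none. Around the loop of 3 comparisons the mean ratios of a gene sum to 0 without error. For the members this sum had a median of -0.01 and an SD of 0.22, against an SD of 0.57 over all named genes, and it was at most 1 in size for 60 of 60. It ranged from -0.98 to 0.39.

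**Figure D1:**
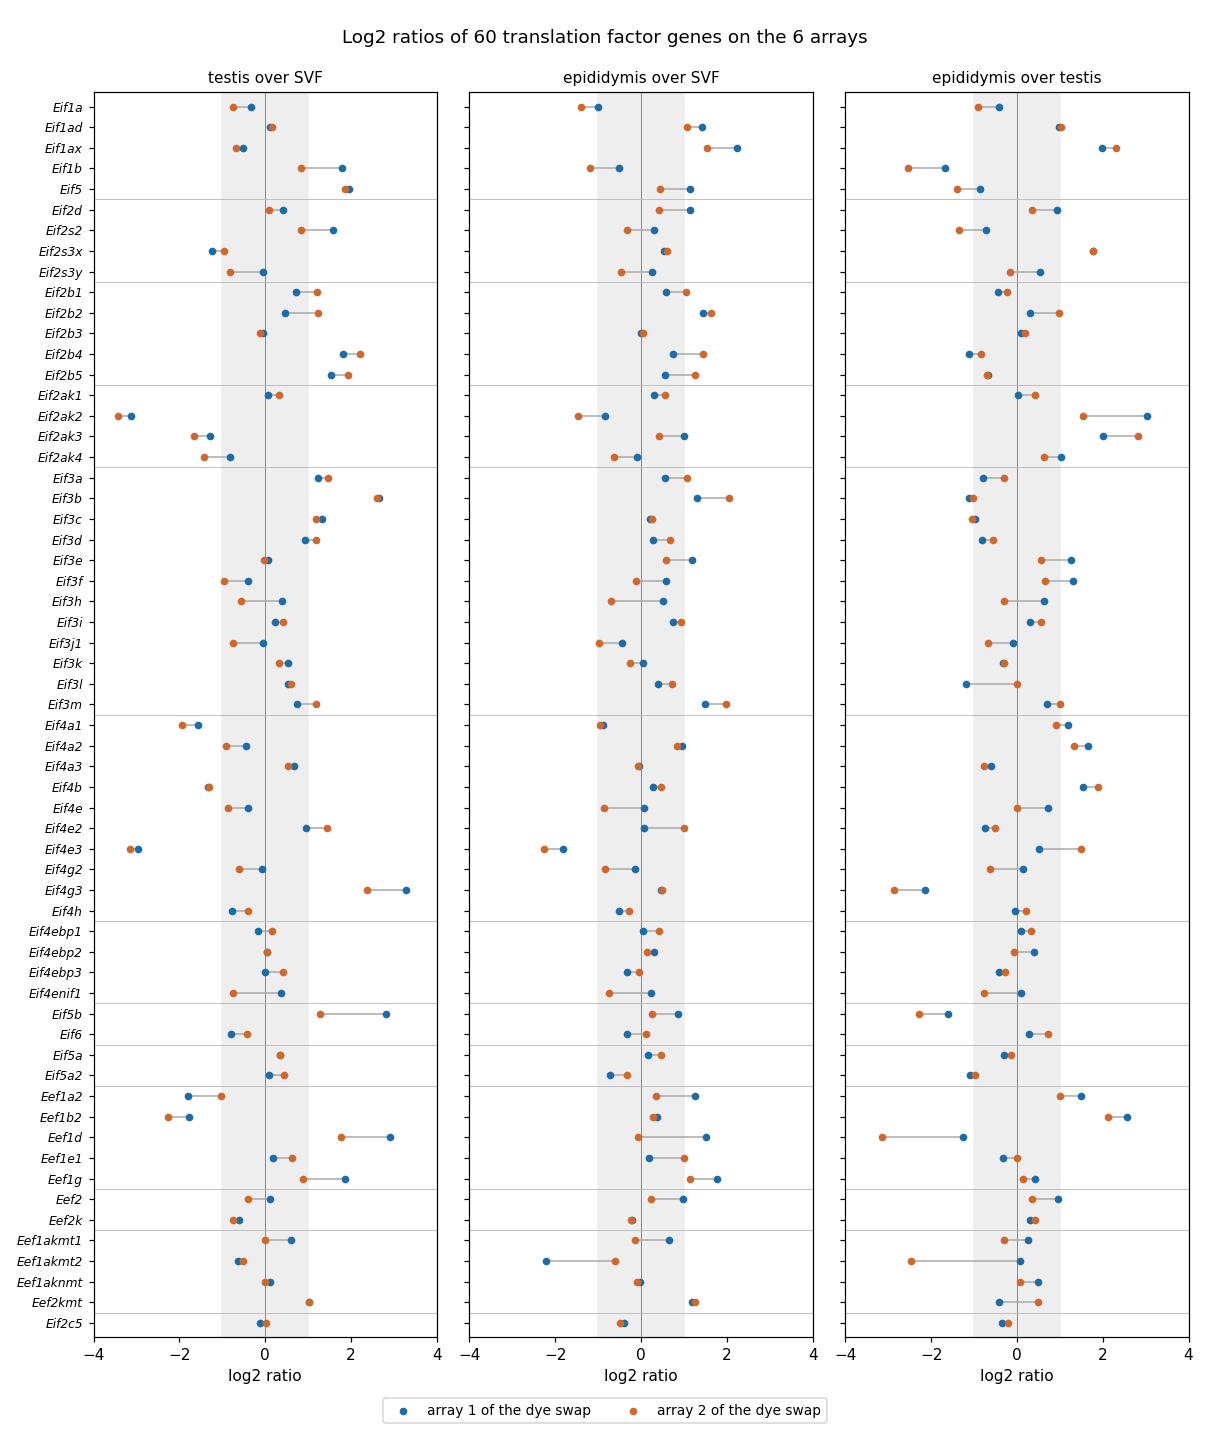
Log2 ratios (horizontal axis) of the 60 members (rows, ordered by role, grey lines between roles) on the 2 arrays of each dye swap, blue for array 1 and orange for array 2, with the sign of the exchanged array turned. The grey band spans ratios below 2-fold. By mean over both arrays, Eif2ak2 and Eif4e3 lie farthest to the left in testis over SVF, and Eif4g3 and Eif3b farthest to the right.

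**Figure D2:**
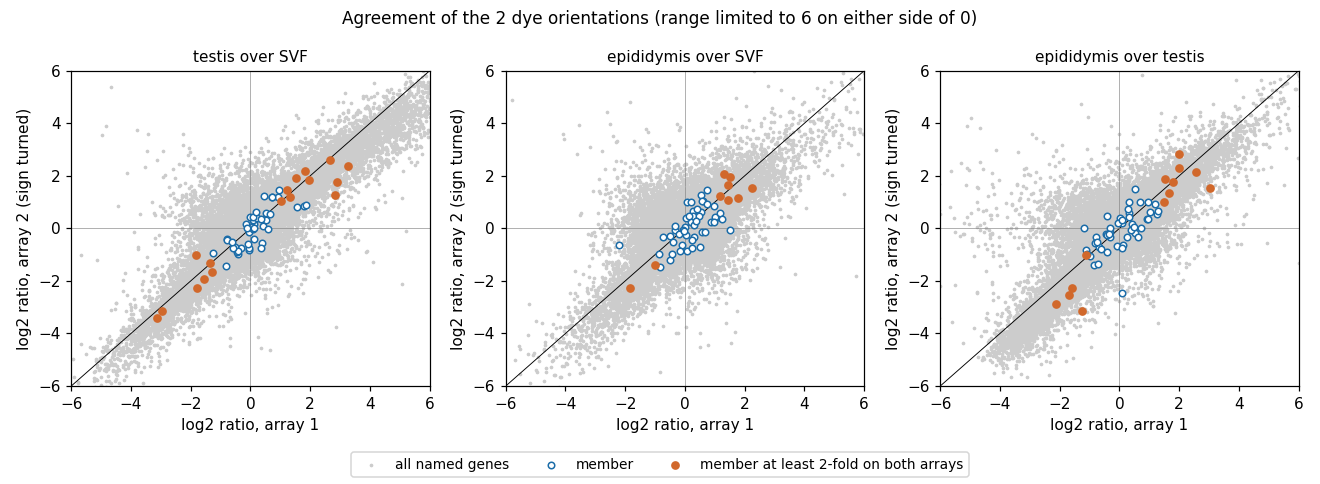
Log2 ratio on array 2 (vertical axis, sign turned) against array 1 (horizontal axis) for all named genes (grey), members (open circles) and members at least 2-fold apart on both arrays (filled circles). Members follow the diagonal, with Pearson's r across the 60 genes of 0.92 for testis over SVF, 0.75 for epididymis over SVF and 0.84 for epididymis over testis, where the points share their arrays and dye effects.

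The stretches just upstream of the start sites are shown for 7 examples of members that met the rule between testis and SVF, picked after their values were seen and not the 7 largest ratios, followed by Eif1ax, the member highest in epididymis over SVF. Each is the 100 bases before the most upstream RefSeq start, on the gene's own strand and in GRCm38.p6, a build that the array files do not name. Capitals mark the GC box, GGGCGG on either strand. The first 4 genes were higher in testis when set against SVF, and the next 3 in SVF.
Eif4g3 at chr4:137993355-137993454, plus strand: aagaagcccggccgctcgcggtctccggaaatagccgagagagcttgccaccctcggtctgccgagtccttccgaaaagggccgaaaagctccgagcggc
Eif3b at chr5:140419205-140419304, plus strand: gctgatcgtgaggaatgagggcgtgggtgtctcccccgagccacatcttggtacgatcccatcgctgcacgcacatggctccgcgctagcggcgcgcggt
Eif5b at chr1:37997910-37998009, plus strand: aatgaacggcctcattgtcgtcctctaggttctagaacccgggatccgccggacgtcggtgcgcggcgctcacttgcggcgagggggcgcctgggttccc
Eif5 at chr12:111538001-111538100, plus strand: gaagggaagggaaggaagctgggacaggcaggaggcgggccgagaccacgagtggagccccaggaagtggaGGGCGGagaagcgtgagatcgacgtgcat
Eif2ak2 at chr17:78882573-78882672, minus strand: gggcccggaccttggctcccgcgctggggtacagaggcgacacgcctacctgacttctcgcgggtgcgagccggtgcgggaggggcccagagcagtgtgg
Eef1b2 at chr1:63176731-63176830, plus strand: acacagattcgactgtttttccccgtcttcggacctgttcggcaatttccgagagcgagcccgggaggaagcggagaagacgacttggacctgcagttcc
Eif4b at chr15:102073673-102073772, plus strand: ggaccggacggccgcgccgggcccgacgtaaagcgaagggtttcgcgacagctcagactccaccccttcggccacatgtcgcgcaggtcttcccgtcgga
Eif1ax at chrX:159372078-159372177, plus strand: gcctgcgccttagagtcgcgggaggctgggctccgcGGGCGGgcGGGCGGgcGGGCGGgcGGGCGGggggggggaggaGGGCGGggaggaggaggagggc

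These stretches are rich in G and C, from 57% in Eef1b2 to 85% in Eif1ax, whose 100 bases hold 5 GC boxes. Promoter windows were matched for 47 of the 60 members. Within 250 bases upstream of any listed start, a GC box was found for 33 of the 47 (70.2%), against 35.4% of the 27025 genes in the RefSeq table. Among members higher in testis than in SVF 5 of 9 held one, and among those higher in SVF 3 of 6. The CCAAT box (CCAAT) was found for 31.9% of members and 37.5% of all genes, and the site of the factor NRF1 for 10.6% and 4.23%. An interferon response element was present for 1 member and 3.46% of all genes. The full cyclic AMP response element (TGACGTCA) was in no member's window and in 1.77% of all genes. All 5 motifs were searched on both strands, and some can overlap one another. These are matches of letters only, and genes with more listed starts had more windows.

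The scanning and start codon factors differed among themselves. Of 5 members, 1 was higher in testis than in SVF (20%, background 20.7%). In epididymis over SVF 2 were higher in epididymis (40%, background 10.2%) and 1 in SVF (20%, background 8.68%). In this and the later role groups a share rests on few genes and is not read as a result. Eif1ax is the X-linked gene of eIF1A, which holds the scanning complex open for start codon recognition. Its log2 ratios were 2.23 and 1.54 in epididymis over SVF, 1.98 and 2.31 in epididymis over testis, and -0.51 and -0.69 in testis over SVF. Epididymis was thus 3.70-fold above SVF (1.89 ± 0.48) and 4.42-fold above testis (2.14 ± 0.23) on all 4 arrays concerned. Eif1a, its autosomal paralogue, went the other way in epididymis over SVF, at -1.01 and -1.41 (2.32-fold higher in SVF), and stood at -0.53 ± 0.30 in testis over SVF and -0.66 ± 0.33 in epididymis over testis. Both arrays of epididymis over SVF put the paralogues on opposite sides of 0. Eif1ad encodes a protein with an eIF1A-like domain, and was 2.38-fold higher in epididymis than in SVF (1.43 and 1.07) while testis and SVF differed little (0.14 ± 0.02).

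Eif1b is a close relative of eIF1. Epididymis over testis gave -1.68 and -2.54, a 4.31-fold higher level in testis (-2.11 ± 0.61). Testis over SVF gave 1.80 and 0.84, and the second fell short of the rule. Eif5, the GTPase activator of eIF2, was read by probes that disagreed. The probe for the RefSeq transcript stood at 4.41 and 3.82 in testis over SVF (4.11 ± 0.42), 1.88 and 1.48 in epididymis over SVF and -2.04 and -2.93 in epididymis over testis. The other, designed to an accession that the RefSeq table does not tie to the gene, stood at -0.31 ± 0.27, -0.09 ± 0.69 and 0.22 ± 0.14 in the same order. Whether that probe reads the mRNA of Eif5 was not tested. Their mean for testis over SVF, 1.90 ± 0.07, describes neither probe.

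Among 4 genes grouped as carriers of the initiator tRNA, which are eIF2 subunits and Eif2d, none met the rule between testis and SVF. Eif2s3x, the X-linked gene of the eIF2 gamma subunit, was higher in epididymis than in testis on both arrays (1.78 and 1.78, 3.43-fold). In testis over SVF it stood at -1.25 and -0.95. Of its 2 probes, the one for a cDNA outside RefSeq gave 3.02 and 3.13 in epididymis over testis and 1.41 and 1.54 in epididymis over SVF, and the RefSeq probe gave 0.54 and 0.42, and -0.33 and -0.31. The call of Eif2s3x thus comes from 1 probe. Eif2s3y, the Y-linked copy that spermatogonia need to proliferate, met the rule nowhere (-0.43 ± 0.53, -0.10 ± 0.50 and 0.18 ± 0.49 in testis over SVF, epididymis over SVF and epididymis over testis). The beta subunit gene Eif2s2 had ratios of 1.57 and 0.83 in testis over SVF and -0.73 and -1.35 in epididymis over testis. Each pair pointed to testis, with 1 array short of 2-fold. Eif2d, which can deliver tRNA outside the usual route, stood at 0.25 ± 0.25 in testis over SVF and 0.78 ± 0.51 in epididymis over SVF.

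Subunits of eIF2B, the exchange factor that reloads eIF2 with GTP, were above 0 in testis over SVF for 4 of 5 genes, with a median of 0.96. The catalytic subunit Eif2b5 stood at 1.53 and 1.92 (3.31-fold) and Eif2b4 at 1.82 and 2.20 (4.03-fold), and both met the rule (40%, background 20.7%). Eif2b1, at 0.72 and 1.20, and Eif2b2, at 0.46 and 1.22, did not, since the first array was below 2-fold. Eif2b3, the gamma subunit that pairs with the catalytic subunit, differed from the rest, with means of -0.09, 0.02 and 0.14 in the 3 comparisons and no SD above 0.06. Its probe was not designed to a RefSeq transcript of the gene. In epididymis over SVF only Eif2b2 met the rule (1.44 and 1.64, 2.91-fold), and Eif2b4 stood at 0.74 and 1.45. No subunit met it between epididymis and testis, where Eif2b4 stood at -1.13 and -0.83.

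The kinases that phosphorylate eIF2 included the member with the largest ratio in size. Eif2ak2 encodes PKR, which is activated by double-stranded RNA and induced by interferon. Testis over SVF gave -3.14 and -3.42, a 9.71-fold higher level in SVF (-3.28 ± 0.20). Epididymis over testis gave 3.02 and 1.54 (4.85-fold higher in epididymis), and epididymis over SVF gave -0.84 and -1.48, which missed the rule. Testis was thus below both other tissues. Eif2ak3 encodes PERK, the kinase of endoplasmic reticulum stress, and was 2.77-fold higher in SVF than in testis (-1.29 and -1.65) and 5.32-fold higher in epididymis than in testis (2.00 and 2.82). Between epididymis and SVF it stood at 1.00 and 0.42. Eif2ak4, the amino acid sensor GCN2, pointed the same way in testis over SVF (-0.83 and -1.43) without meeting the rule. Eif2ak1, the heme-regulated kinase, stayed close to 0, with means of 0.19 ± 0.17, 0.42 ± 0.18 and 0.22 ± 0.27 in testis over SVF, epididymis over SVF and epididymis over testis. Thus 2 of 4 kinases were lower in testis than in SVF (50%, background 16%) and than in epididymis (50%, background 14.3%). None was higher in testis. With 4 genes these shares are not read as a result about the kinases.

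The scaffold eIF3, which binds the small subunit and keeps other factors on it, was measured through 12 subunits. In testis over SVF 3 were higher in testis (25%, background 20.7%) and none in SVF (background 16%), with a median of 0.49. The share higher in testis was thus near that of all named genes. Eif3b, a core subunit, gave 2.66 and 2.60 in testis over SVF (6.20-fold), 1.30 and 2.06 in epididymis over SVF (3.21-fold) and -1.11 and -1.02 in epididymis over testis (2.09-fold higher in testis). The tissues were therefore ordered testis, epididymis and SVF, each step at least 2-fold on both arrays. The other core subunits Eif3a and Eif3c were 2.56-fold (1.24 and 1.47) and 2.39-fold (1.33 and 1.19) higher in testis than in SVF. Of the Eif3c probes, 1 gave 1.52 and 1.60 there, and the other gave 1.14 and 0.78, which missed the rule. Eif3c fell just short against epididymis, at -0.98 and -1.06. Eif3d, a subunit that can bind caps, gave 0.92 and 1.18 in testis over SVF.

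Other eIF3 subunits did not share that order. Eif3m was 3.33-fold higher in epididymis than in SVF (1.50 and 1.97), and epididymis over testis gave 0.69 and 1.01, which missed the rule. Eif3e had ratios of 1.19 and 0.57 in epididymis over SVF, and its RefSeq probe alone gave 1.58 and 1.61 there and 1.27 and 1.34 in epididymis over testis. Eif3f leaned away from testis without meeting the rule, at -0.41 and -0.97 against SVF and 1.30 and 0.66 in epididymis over testis. Eif3h changed sign between the arrays of every pair, and the means of Eif3i, Eif3j1, Eif3k and Eif3l lay between -0.71 and 0.83 in the 3 comparisons. Within eIF3, mean ratios of testis over SVF ran from -0.69 to 2.63.

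The cap-binding and helicase factors of eIF4 held the widest spread, from -3.06 to 2.82 in testis over SVF. Of 10 genes, 1 was higher in testis (10%, background 20.7%) and 3 in SVF (30%, background 16%), with a median of -0.61. Eif4g3, a paralogue of the scaffold eIF4G that male germ cells need for meiosis, gave 3.27 and 2.38 in testis over SVF (7.08-fold, 2.82 ± 0.63) and -2.14 and -2.86 in epididymis over testis (5.65-fold higher in testis). Its 2 probes, both for the same RefSeq transcript, each met the rule in both of these comparisons. In epididymis over SVF the mean was 0.47 ± 0.01. Eif4g2, a relative of eIF4G that lacks the binding site for eIF4E, showed no such ratios (-0.34 ± 0.37, -0.50 ± 0.49 and -0.25 ± 0.52).

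Eif4e3, an unusual member of the cap-binding eIF4E family, stood at the other end. Testis over SVF gave -2.96 and -3.16 (8.32-fold higher in SVF) and epididymis over SVF gave -1.83 and -2.27 (4.15-fold higher in SVF). SVF was above both other tissues on each of these arrays, and epididymis over testis gave 0.52 and 1.49. Eif4e2, which encodes a cap-binding repressor, leaned to testis over SVF (0.95 and 1.45), and Eif4e, the main cap-binding factor, leaned slightly to SVF (-0.41 and -0.87). Neither met the rule.

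The helicase genes Eif4a1 and Eif4a2, which unwind mRNA leaders, each met the rule in 1 comparison. Eif4a1 was 3.35-fold higher in SVF than in testis (-1.56 and -1.93), while epididymis gave -0.88 and -0.96 over SVF and 1.20 and 0.92 over testis. Eif4a2 was 2.82-fold higher in epididymis than in testis (1.65 and 1.34), with 0.96 and 0.84 in epididymis over SVF and -0.45 and -0.91 in testis over SVF. Eif4a3, a paralogue of the exon junction complex, stood at 0.60 ± 0.09 in testis over SVF. The helicase cofactor Eif4b was 2.51-fold higher in SVF than in testis (-1.34 and -1.32) and 3.26-fold higher in epididymis than in testis (1.53 and 1.88). The related cofactor Eif4h stood at -0.59 ± 0.28 in testis over SVF.

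The inhibitors of cap binding lay close to 0. None of the 3 eIF4E-binding protein genes, which are released from eIF4E when mTOR phosphorylates them, met the rule, and no mean was above 0.34 in size. Eif4ebp1 stood at 0.00 ± 0.23, Eif4ebp2 at 0.04 ± 0.01 and Eif4ebp3 at 0.20 ± 0.30 in testis over SVF. The eIF4E transporter gene Eif4enif1 changed sign between arrays in all 3 comparisons.

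At subunit joining, Eif5b gave 2.82 and 1.28 in testis over SVF (4.15-fold) and -1.60 and -2.28 in epididymis over testis (3.84-fold higher in testis). Both probes agreed in epididymis over testis. In testis over SVF the probe for a cDNA outside RefSeq gave 3.18 and 2.63, while the RefSeq probe gave 2.47 and -0.07, so that ratio is less certain. Eif6, which keeps large subunits from joining too early, stood at -0.61 ± 0.25 in testis over SVF. The eIF5A genes, whose proteins carry hypusine and help the ribosome through difficult peptide bonds, met the rule nowhere. Eif5a stood at 0.34 ± 0.00 in testis over SVF, and its paralogue Eif5a2 at -1.10 and -0.97 in epididymis over testis, with 1 array short of 2-fold.

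Elongation factor genes of the eEF1 complex went in opposite directions. Eef1b2, the guanine nucleotide exchange subunit beta, gave -1.78 and -2.27 in testis over SVF (4.07-fold higher in SVF) and 2.56 and 2.13 in epididymis over testis (5.07-fold higher in epididymis). Epididymis and SVF were close, at 0.36 and 0.27. Eef1d, the delta subunit with the same exchange function, gave 2.90 and 1.77 in testis over SVF (5.05-fold higher in testis) and -1.27 and -3.14 in epididymis over testis. The probe for a cDNA outside RefSeq carried most of this, at 3.46 ± 0.91 in testis over SVF. The RefSeq probe of Eef1d stood at 1.71 and 0.72 there, and at -0.47 and -1.39 in epididymis over testis. Both pairs had the same direction but did not meet the rule.

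Eef1g, the gamma subunit that anchors the complex, was 2.75-fold higher in epididymis than in SVF (1.77 and 1.15). Testis over SVF gave 1.87 and 0.88, which missed the rule. Eef1a2 encodes the eEF1A isoform known from muscle and neurons, and was 2.67-fold higher in SVF than in testis (-1.81 and -1.03) and 2.37-fold higher in epididymis than in testis (1.48 and 1.01). The second array was close to the 2-fold limit in both, and with each array centred on its median the first of these calls was lost. Epididymis over SVF gave 1.25 and 0.35. Around the loop the mean ratios of Eef1a2 summed to -0.98, the largest sum in size of any member, so they disagree with each other. Eef1e1, a scaffold protein of the tRNA synthetase complex, met the rule nowhere (0.40 ± 0.30 in testis over SVF). Eef2, the translocase, stood at -0.14 ± 0.38 and its inhibitory kinase Eef2k at -0.68 ± 0.11 in testis over SVF, and neither met the rule in any comparison.

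Of the methyltransferases, Eef2kmt, which modifies eEF2, was lowest in SVF, at 1.01 and 1.03 in testis over SVF and 1.19 and 1.25 in epididymis over SVF. The first of these was barely over the 2-fold limit. The only probe of Eef2kmt was not designed to a RefSeq transcript of the gene. Eef1akmt2 had the widest split between arrays of any member, with 0.07 and -2.47 in epididymis over testis (SD 1.80) and -2.22 and -0.62 in epididymis over SVF, and is not placed in any order. Eef1akmt1 and Eef1aknmt had means of at most 0.29 in size, and Eif2c5 of at most 0.45.

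**Figure D3:**
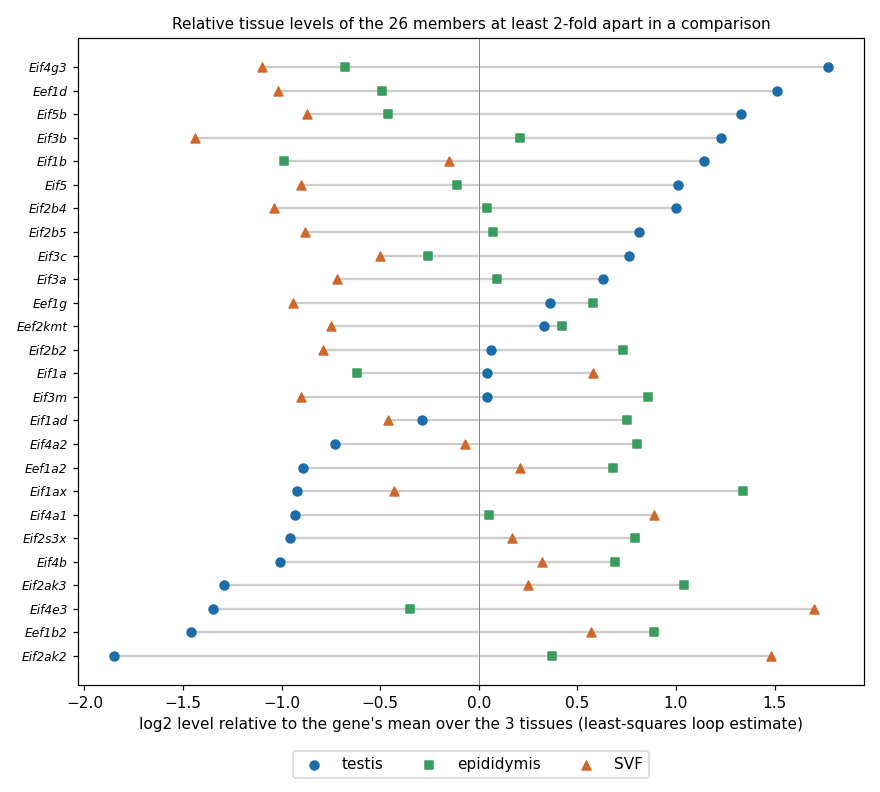
Level of each of the 26 members that met the size rule, in testis (circles), epididymis (squares) and SVF (triangles), as log2 relative to the gene's own mean over the 3 tissues, from a least-squares estimate over the 6 arrays. Rows are ordered by the testis level, from Eif2ak2 at -1.85 to Eif4g3 at 1.77; levels can be compared within a row only.

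Placed on 1 scale per gene by a least-squares estimate over the 6 arrays, testis was the highest tissue for 22 members, epididymis for 22 and SVF for 16. The shares were 36.7%, 36.7% and 26.7%, against 40.2%, 27.9% and 31.9% of all named genes. SVF was the lowest tissue for 28 members, testis for 21 and epididymis for 11. These made up 46.7%, 35% and 18.3% of the members, against 36.4%, 39.6% and 24% of all named genes. The gap between the highest and lowest tissue had a median of 1.12 over the members and 1.15 over all named genes. It ran from 0.13 in Eif2b3 to 3.33 in Eif2ak2. For many members the order rests on gaps smaller than the difference between arrays, so these counts describe the estimate and order no single member.

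Agreement between probes set a limit for several of these genes. Of the 68 probes, 59 were designed to an accession that RefSeq lists as a transcript of the gene, and these covered 57 members. No member had probes that met the rule in opposite directions. For 7 of the 8 members with 2 probes the gap between the probes exceeded the larger of their SDs in at least 1 comparison. Eif4g3 was the exception. The gap was above it in all 3 comparisons for Eif5 and Eif2s3x. The probes of Eif3e stood on opposite sides of 0 in testis over SVF, at -0.46 ± 0.06 and 0.51 ± 0.05, and those of Eif3c at 0.96 ± 0.25 and 1.56 ± 0.06.

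**Figure D4:**
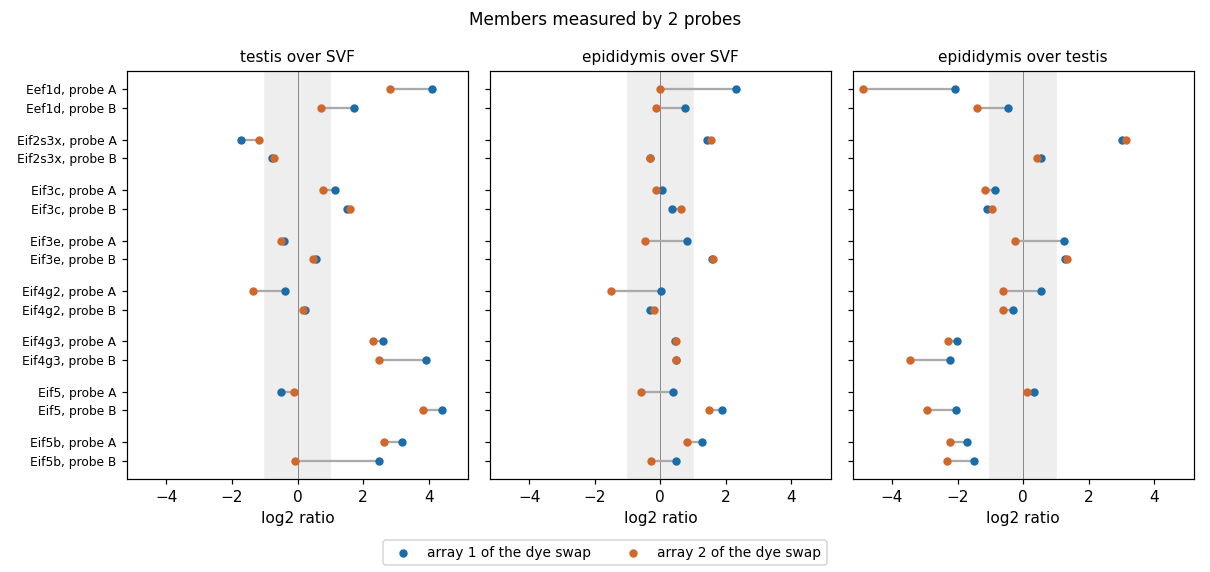
Log2 ratios (horizontal axis) of the 8 members measured by 2 probes (rows, probes A and B), on array 1 (blue) and array 2 (orange) of each dye swap; the grey band spans ratios below 2-fold. The probes of Eif5 stand at -0.31 and 4.11 in testis over SVF, and those of Eif4g3 at 2.46 and 3.19.

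Other genes of translation give the setting. Cytoplasmic ribosomal protein genes, the partners of these factors in the ribosome, had a median of -1.13 in testis over SVF. Of 67 genes, 27 were higher in SVF (40.3%, background 16%) and none in testis (background 20.7%). In epididymis over testis the median was 1.17, with 28 higher in epididymis (41.8%, background 14.3%). The 60 factors had medians of 0.09 and 0.12 in these 2 comparisons. Between epididymis and SVF no ribosomal protein gene met the rule, and 44 of the 67 changed sign between arrays. Among 8 measured factor genes whose mRNAs begin with a terminal oligopyrimidine tract, the leader shared with ribosomal protein mRNAs, Eef1b2 and Eif4b were lower in testis than SVF and Eef1d was higher, with a median of -0.12. The call of Eef1d came from its probe outside RefSeq alone. The other genes, Eef1g, Eef2, Eif3e, Eif3f and Eif3h, did not meet the rule between testis and SVF. Of 20 cytosolic aminoacyl-tRNA synthetase genes, which charge tRNAs, 2 were higher in testis than in SVF (10%, background 20.7%). Another 1 was higher in SVF (5%, background 16%), and the median was 0.23. Vars stood at 2.67 ± 0.37 and Nars at -2.45 ± 0.05. The serine enzyme gene Sars was higher in epididymis than in testis (1.62 ± 0.14). The tryptophan enzyme gene Wars was higher in epididymis than in SVF (3.94 ± 0.33) and than in testis (2.92 ± 0.02).

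Of 14 genes linked to eIF2 phosphorylation and scanning, 3 were higher in testis than in SVF (21.4%, background 20.7%). Another 5 were higher in SVF (35.7%, background 16%). The median size of the log2 ratio was 1.47, against 0.66 for the 60 factors and 0.83 for all named genes. The list was chosen with earlier results of these data known, so this difference is not read as a result. D1Pas1, an autosomal relative of the helicase gene Ddx3x expressed in testis, stood at 5.32 ± 0.63 in testis over SVF. Bzw2, which encodes a mimic of eIF5, stood at -2.60 ± 0.86. Impact, a regulator of GCN2, stood at -4.01 ± 0.55, and Atf4, whose mRNA is translated when eIF2 is phosphorylated, at -3.29 ± 0.07. Of 14 cap and poly(A) tail partners, 4 were higher in testis than in SVF (28.6%, background 20.7%) and 1 in SVF (7.14%, background 16%). The testis poly(A)-binding protein gene Pabpc2 (3.90 ± 0.51) was among the 4, and the 1 was the eIF4E kinase gene Mknk2 (-2.12 ± 0.13). The RNA-binding protein gene Larp1 stood at 1.89 ± 0.39. The nuclear cap-binding gene Ncbp1 was lower in epididymis than in testis (-1.78 ± 0.52) and higher in epididymis than in SVF (1.45 ± 0.41). In testis over SVF Ncbp1 gave 1.58 ± 2.69 and missed the rule, so its tissues are not ordered. Of 9 genes of termination and recycling, 2 were higher in testis (22.2%, background 20.7%) and 3 in SVF (33.3%, background 16%). The ribosome rescue gene Hbs1l stood at 3.08 ± 0.43. The reinitiation factor gene Mcts1 stood at -2.89 ± 0.40 and its partner Denr at -1.77 ± 0.87. Mcts2, of the same list, went the other way at 1.80 ± 0.21. Etf1, the release factor that reads stop codons, was higher in testis than in epididymis (-2.16 ± 0.35 in epididymis over testis).

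Among 7 measured genes of selenocysteine insertion, testis exceeded SVF for 3 (42.9%, background 20.7%) and SVF exceeded testis for none (background 16%). These were Sephs2 (3.32 ± 0.54), Trnau1ap (2.80 ± 0.14) and the specialised elongation factor gene Eefsec (1.42 ± 0.59), whose symbol lacks the number that the member rule asks for. Secisbp2l was higher in epididymis than in testis (1.78 ± 0.38). Of 10 mitochondrial translation factors, 2 were higher in testis than in SVF (20%, background 20.7%). These were Mtif3 at 2.22 ± 0.38 and Mtrf1 at 1.21 ± 0.08. Between epididymis and testis, Guf1 was higher in epididymis (1.94 ± 0.66) and the elongation factor gene Gfm1 in testis (-1.16 ± 0.06). None of 7 genes that make diphthamide, the modified residue of eEF2, met the rule between testis and SVF, and Dph3 was higher in epididymis than in testis (1.32 ± 0.02). Of the eIF5A hypusination enzymes only Dohh was measured here, and it was higher in epididymis than in testis (1.15 ± 0.16).

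**Figure D5:**
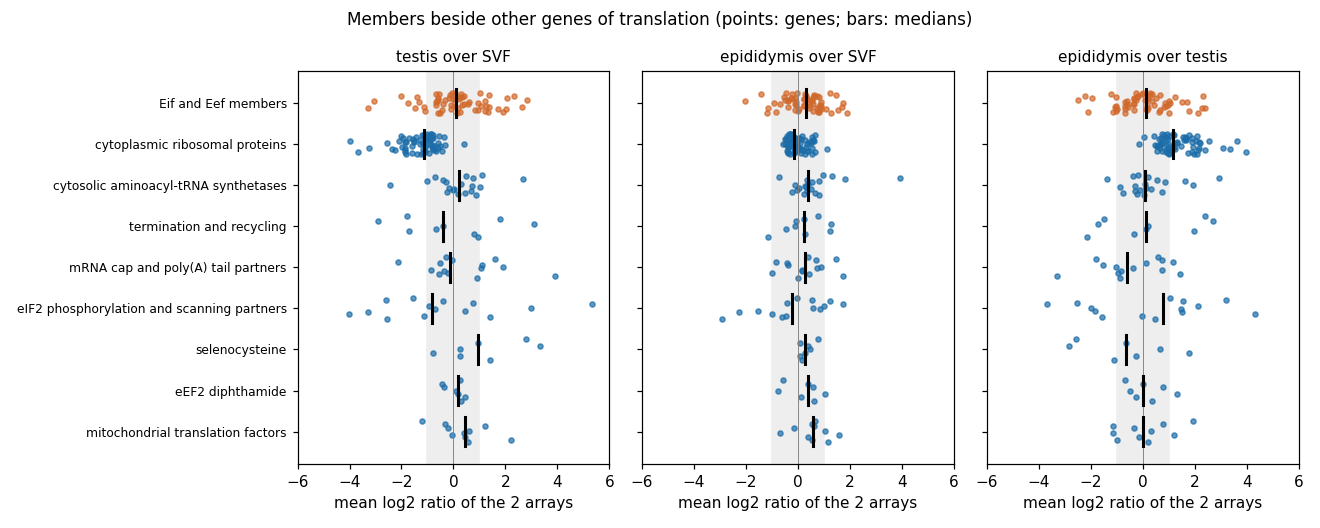
Mean log2 ratio of the 2 arrays (horizontal axis) for each member (orange) and each gene of 8 other lists of translation genes (blue), with the list median as a black bar; the grey band spans ratios below 2-fold. In testis over SVF the ribosomal protein genes centre at -1.13 and the members at 0.09.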

How the data were processed

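Total RNA of mouse testis, epididymis and SVF, extracted and labelled with Qiagen and Ambion products per the labels, was compared on 6 2-colour arrays forming 3 dye swaps. The deposited values are the authors' log ratios of both channels, read here as log2. The sources used here state neither their base and direction nor how background and normalization were handled. The sign of the dye-exchanged array was turned, since both arrays of a pair correlated negatively as deposited (Pearson's r over probes of -0.86, -0.64 and -0.77). No value was missing. Of 25344 probes, 21112 had an annotation row. Of these, 20456 were named by gene ID through the RefSeq table of GRCm38.p6, 248 kept the annotated name, and 220 went by symbol. Another 158 had a non-mouse symbol and 30 several genes, and these were not named. A gene's value was the mean of its probes, and its error the SD of 2 hybridisations.

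With 1 RNA sample per tissue no test was made, and a gene was called at 2-fold on both arrays. The script that applies the limit was run on simulated data to check its code. Named were all members meeting that rule, the 2 members with the largest mean ratio in each role group, both members of each paralogue pair, and members with probes called in opposite directions (none). Of each wider pathway list, at most 4 genes meeting the rule were named by size of ratio, and Mcts2 was added beside Mcts1. The remaining members, ribosomal protein genes as a group and the list of terminal oligopyrimidine members are given beside these. Members and lists were chosen with earlier results of these data known. Alternatives changed array centring, the estimate, the fold limit, the probe, the log base and the array left out, and the use of RefSeq probes alone was added after seeing the data. Python 3.11.15, pandas 2.3.3, numpy 2.4.6 and matplotlib 3.10.9 were used.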

Additional observations from a re-analysis of the deposited data

How the results depend on the processing

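Over the 3 comparisons 39 calls met the 2-fold rule, and no alternative tried gave an opposite call. Median centring kept 38 (losing that of Eef1a2 between testis and SVF), the loop estimate, the mean alone and natural logarithms kept 39, the probe with the smallest difference between arrays 36, and RefSeq probes alone, chosen after seeing the data, 33. A limit of 4-fold kept 6, those of Eif2ak2, Eif3b, Eif4e3 and Eif4g3 between testis and SVF and of Eef1b2 and Eif4g3 between epididymis and testis.

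Members higher in testis than in SVF numbered 10, and 16 by the loop estimate, 17 read as natural logarithms and 2 at 4-fold. Those higher in SVF than in testis numbered 7, and 2 at 4-fold. Those higher in epididymis than in SVF numbered 7, with 0 at 4-fold and 13 from either array alone. Those higher in SVF than in epididymis numbered 2, with 4 by the loop estimate, by the mean alone and read as natural logarithms, 0 at 4-fold, and 3 to 4 with an array left out. Those higher in epididymis than in testis numbered 8, and 1 at 4-fold. Those higher in testis than in epididymis numbered 5, with 9 by the loop estimate, 10 by the mean alone and read as natural logarithms, 1 at 4-fold, and 8 to 9 with an array left out. The looser rules and the higher limit move these counts by construction.

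The members' median of 0.09 in testis over SVF became 0.16 with the probe of smallest difference, 0.14 read as natural logarithms and 0.19 with RefSeq probes. That of 0.31 in epididymis over SVF became 0.26 after centring, 0.28 with the probe of smallest difference, 0.45 read as natural logarithms, 0.26 with RefSeq probes and 0.26 to 0.30 with an array left out. That of 0.12 in epididymis over testis was 0.00 to 0.10 with an array left out. Eif5 in testis over SVF turned to -0.31 with the probe of smallest difference, the one whose accession RefSeq does not tie to the gene. No paired analysis was possible because each tissue has 1 RNA sample. No gene had a missing value, so requiring all 6 arrays changed nothing. Signal over background was not analysed here.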
